A study of Mus musculus with 12 samples.

Results

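Laptm4b, Laptm4a, Peak1 and Prag1 are 4 of the 25674 genes counted in sorted mouse spiral ganglion neurons, the cells that carry signals from the hair cells of the cochlea to the brainstem. Laptm4b and Peak1 were chosen because their counts were lower in every library labelled Isl1CKO than in every control library. Laptm4a, the nearest relative of Laptm4b, and Prag1, the nearest relative of Peak1, were added to them as a contrast. The differences between the genotypes in these 4 genes are therefore given as a description, with no test. All 4 of them passed the filter on low counts that left 14813 genes.

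The control embryos carried Neurod1Cre and the Rosa26tdTOM reporter. The Isl1CKO embryos carried both of these together with Isl1loxP/loxP, so that Cre could remove the floxed part of Isl1, a gene for a LIM homeodomain transcription factor of sensory neurons. Both groups thus shared the Cre transgene, which is active only where Neurod1 is expressed, the tdTomato reporter and a mixed C57BL/6 and sv129 background. At E14.5 (embryonic day), 100 tdTomato-positive cells were sorted per sample from the inner ears of a single embryo of either sex, per the labels, with 6 samples per group, and RNA was made into libraries with a low-input kit. The embryos came from several litters, and which litter each sample came from is not given in the sources used here. The design text calls the samples biological replicates, whereas one label tag calls them technical. If the tag is right, the p-values measure only technical spread. Replicates 2, 3 and 5 of the Isl1CKO-labelled group held both Xist and Y-linked transcripts, which goes against the label of a single embryo of either sex for these 3 libraries. For that group n = 6 therefore counts libraries, and results are also given without these 3.

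LAPTM4B is a membrane protein of late endosomes and lysosomes that spans the membrane several times. It binds ceramide, interacts with the ubiquitin ligase NEDD4, affects the sorting of the epidermal growth factor receptor, and recruits the leucine transporter made of SLC7A5 and SLC3A2 to the lysosome, where amino acids act on the kinase complex mTORC1. LAPTM4A is a close relative on the same membranes, needed for the synthesis of the glycosphingolipid globotriaosylceramide, and LAPTM5 is the relative known from blood cells. PEAK1 and PRAG1, also called Pragmin, are pseudokinases: they keep a kinase fold without normal kinase activity and serve as scaffolds for adaptors such as SHC1, GRB2 and CRK and for the kinase CSK, at focal adhesions and the actin cytoskeleton. PRAG1 also binds the small GTPase RND2.

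Since each pair is made of relatives, their coding sequences were compared first, because reads shared between relatives could mix their counts. The most alike stretch of 75 bases of Peak1 and Prag1 is shown here 5′ to 3′ on the coding strand, from GENCODE M21 transcripts on GRCm38, with capitals where both carry the same base.
Peak1, exon 7 of 7, chr9:56206867-56206941, - strand: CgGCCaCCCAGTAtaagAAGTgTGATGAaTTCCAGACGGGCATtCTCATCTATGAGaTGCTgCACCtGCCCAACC
Prag1, exon 6 of 6, chr8:36146930-36147004, + strand: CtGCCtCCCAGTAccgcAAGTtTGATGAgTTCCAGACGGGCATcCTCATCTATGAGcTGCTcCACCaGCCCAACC
Even in this stretch Peak1 and Prag1 differed at 12 of 75 bases, and their longest run of identical coding bases was 17. No stretch of 31 bases was shared between the transcripts of relatives, in this pair or between Laptm4b and Laptm4a.

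Other sequences in the annotation come closer. Of the 31-base stretches of Laptm4b, 11.1% also occur in the processed pseudogene Gm6705, which had 0 to 5 counts per library. Peak1 shares 0.324% of its 31-base stretches with the pseudogene Gm47945, which is not among the genes counted. An exon of Peak1 overlaps one of the antisense gene Peak1os, which had 0 to 20 counts per library in controls and 0 counts in all 6 Isl1CKO-labelled libraries. The pseudogene Gm18949, with 1 to 15 counts, lies on the opposite strand in an intron of Laptm4b. Whether counting used strand is not given in the sources used here, so reads of Peak1 and Peak1os cannot be told apart. Gm6705, Peak1os and Gm18949 had at most 20 counts in a library, against at least 363 for Laptm4b and 119 for Peak1. These counts do not show how many shared reads were counted under Laptm4b or Peak1, or dropped.

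Laptm4b (ENSMUSG00000022257, chromosome 15, 34238028 to 34284302 on the + strand, GRCm38) was the most abundant of the 4 genes per length in control neurons. Levels are in CPM, a gene's counts relative to a common library size, with libraries scaled by TMM. In controls the lowest library had 243 CPM, the median was 256 CPM and the highest had 303 CPM. Among the Isl1CKO-labelled libraries the lowest had 27.1 CPM, the median was 36.4 CPM and the highest had 47.4 CPM. The groups did not overlap, and the lowest control library was several times above the highest Isl1CKO-labelled one. Laptm4b averaged 264 ± 23.7 CPM (SD, n = 6) in controls and 36.2 ± 7.36 CPM (SD, n = 6) in Isl1CKO-labelled libraries, 13.7% of the control mean. On the log2 scale the difference, Isl1CKO-labelled minus control, was -2.86 (standard error 0.13). Of the 14813 genes tested, 69 had a more negative fold change. Counts of 3060 to 3800 in controls and 363 to 599 in the other group lay far above the floor of 3 counts.

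Peak1 (ENSMUSG00000074305, chromosome 9, 56201126 to 56418067 on the - strand), the larger of the pseudokinase genes, was the other gene chosen for its low values. Control libraries had 126 CPM at the lowest, 142 CPM at the median and 214 CPM at the highest. Isl1CKO-labelled libraries had 8.68 CPM at the lowest, 12.1 CPM at the median and 21.1 CPM at the highest. These groups did not overlap either, and 1 control library, replicate 2, stood above the other 5, which lay between 126 and 146 CPM. The mean of Peak1 was 150.2 ± 32.4 CPM (SD, n = 6) in controls and 13.9 ± 4.94 CPM (SD, n = 6) in the Isl1CKO-labelled group, 9.27% of the control mean. On the log2 scale Peak1 differed by -3.43 (standard error 0.22), and 37 genes had a more negative one. Relative to the mean, Peak1 varied more between libraries than Laptm4b, with coefficients of variation of 21.6% in controls and 35.5% in the Isl1CKO-labelled group against 8.98% and 20.3%.

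Laptm4a (ENSMUSG00000020585, chromosome 12, 8921664 to 8938742 on the + strand) had overlapping groups. The control libraries ran from 93.5 CPM through a median of 111 CPM to 115 CPM. In the Isl1CKO-labelled libraries the values ran from 62.5 CPM through a median of 96.2 CPM to 111 CPM. Replicate 3 of that group was the lowest of the 12 libraries, and the other 5 lay within or just under the control range. Laptm4a averaged 109 ± 7.85 CPM (SD, n = 6) in controls and 92.8 ± 16.3 CPM (SD, n = 6) in the Isl1CKO-labelled group, 85.4% of the control mean. The log2 difference was -0.23 (standard error 0.12), and 27.3% of the genes tested had a more negative one. Counts of Laptm4a were 831 to 1550 per library, far above the floor of 3.

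Prag1 (ENSMUSG00000050271, chromosome 8, 36094828 to 36147787 on the + strand) was expressed at a low level throughout. Controls had 1.43 CPM at the lowest, a median of 3.02 CPM and 8.09 CPM at the highest. The Isl1CKO-labelled libraries had 0.0776 CPM at the lowest, a median of 1.07 CPM and 2.93 CPM at the highest. The groups overlapped, with the highest Isl1CKO-labelled library above 3 of the control libraries. Mean levels were 3.71 ± 2.41 CPM (SD, n = 6) and 1.2 ± 1.04 CPM (SD, n = 6), 32.3% of the control mean. Prag1 had a log2 difference of -1.62 (standard error 0.66), which ranged from -2.10 without Isl1CKO replicate 1 to -1.24 without control replicate 3. Of the genes tested, 330 (2.23%) had a more negative one, so this contrast gene was itself among the lower ones. Behind these levels stood 18 to 97 counts in controls and 1 to 37 in the other group, and only 4 of the 6 Isl1CKO-labelled libraries reached 10 counts.

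**Figure D1:**
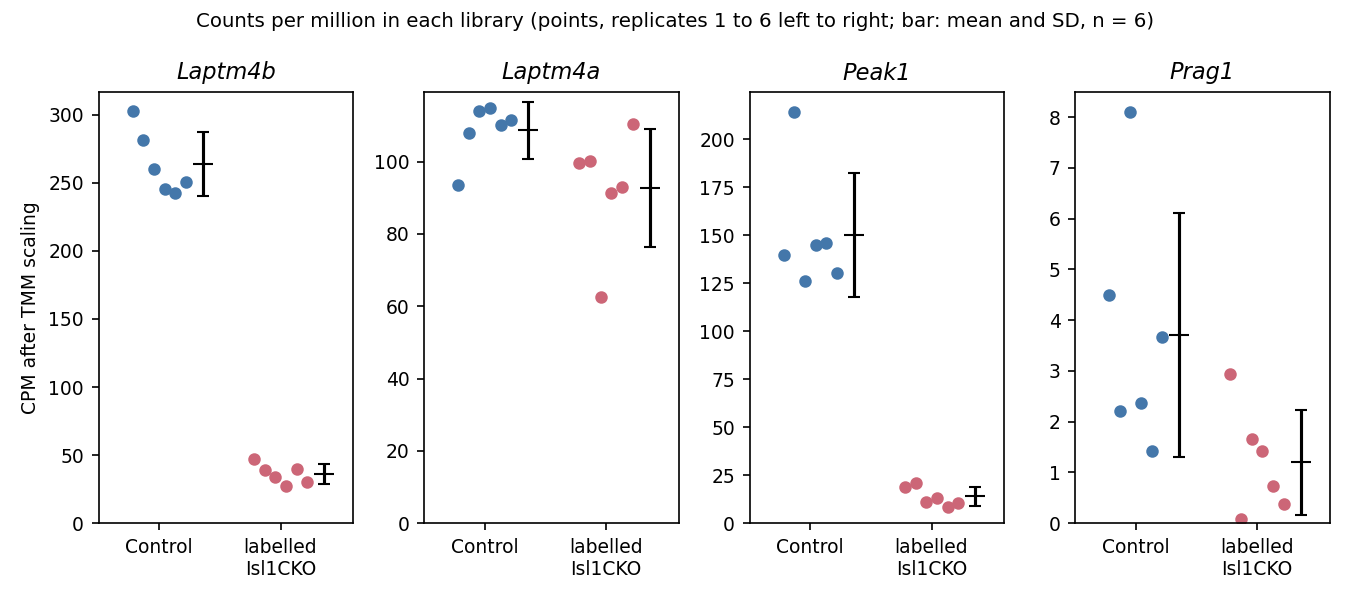
Level of Laptm4b, Laptm4a, Peak1 and Prag1 in each library in CPM on linear axes that differ between panels, with control and Isl1CKO-labelled libraries side by side and the mean and SD of each group (n = 6) as a bar. The points of Laptm4b and Peak1 form groups that do not overlap, whereas those of Laptm4a and Prag1 overlap.

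Groups that did not overlap, with the Isl1CKO-labelled libraries lower, were thus seen in 2 of the 4 genes, the 2 that the choice required, and in 541 of all 14813 genes (3.65%). The Isl1CKO-labelled libraries were higher without overlap in 463 genes (3.13%), which makes 1004 in either direction (6.78%). In bulk libraries of sorted cells, fewer cells that express a gene and less RNA of it per cell cannot be told apart.

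To compare levels between genes, CPM was divided by the exonic length of each gene in kilobases. In controls Laptm4b led with 136 ± 12.2 CPM per kb (SD, n = 6), followed by Laptm4a with 61.3 ± 4.43, Peak1 with 12.2 ± 2.63 and Prag1 with 0.386 ± 0.251. In the Isl1CKO-labelled group Laptm4a came first with 52.3 ± 9.20 CPM per kb (SD, n = 6), then Laptm4b with 18.7 ± 3.80, Peak1 with 1.13 ± 0.400 and Prag1 with 0.125 ± 0.108. Neighbours in either order did not overlap between libraries, so Laptm4b and Laptm4a exchanged places while Peak1 stayed above Prag1. Within single libraries the level of Laptm4b per length was above that of Laptm4a in 6 of 6 controls and in 0 of 6 Isl1CKO-labelled libraries. The log2 ratio of Laptm4b over Laptm4a per length averaged 1.15 ± 0.23 (SD, n = 6) in controls and -1.48 ± 0.38 (SD, n = 6) in the other group. The ratios were taken from log2 CPM with a prior count of 2. Without the prior count the means were 1.15 and -1.49.

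For the pseudokinases the log2 ratio of Peak1 over Prag1 per length averaged 5.11 ± 1.01 (SD, n = 6) in controls and 3.39 ± 1.49 (SD, n = 6) in Isl1CKO-labelled libraries, with ranges of 3.57 to 6.17 and 2.26 to 6.16. The highest value of the Isl1CKO-labelled group came from replicate 2, in which Prag1 had 1 count, so that 6.16 is set by the prior count. Without the prior count, an alternative added after seeing the data, that library had 7.72 (95% exact Poisson interval of the Prag1 count, 5.25 to 13.0), above every control. The other 5 libraries of its group then had 2.32 to 4.44, against 3.60 to 6.32 in controls. The Isl1CKO-labelled mean was 3.82 ± 2.06 (SD, n = 6) with replicate 2 and 3.04 ± 0.86 (SD, n = 5) without it. The control mean was 5.18 ± 1.05 (SD, n = 6). Both with and without replicate 2 the ranges of the groups overlapped. Between the 2 genes chosen for their low values, the log2 ratio of Laptm4b over Peak1 per length averaged 3.50 ± 0.26 in controls and 4.09 ± 0.45 in the other group (SD, n = 6 each).

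**Figure D2:**
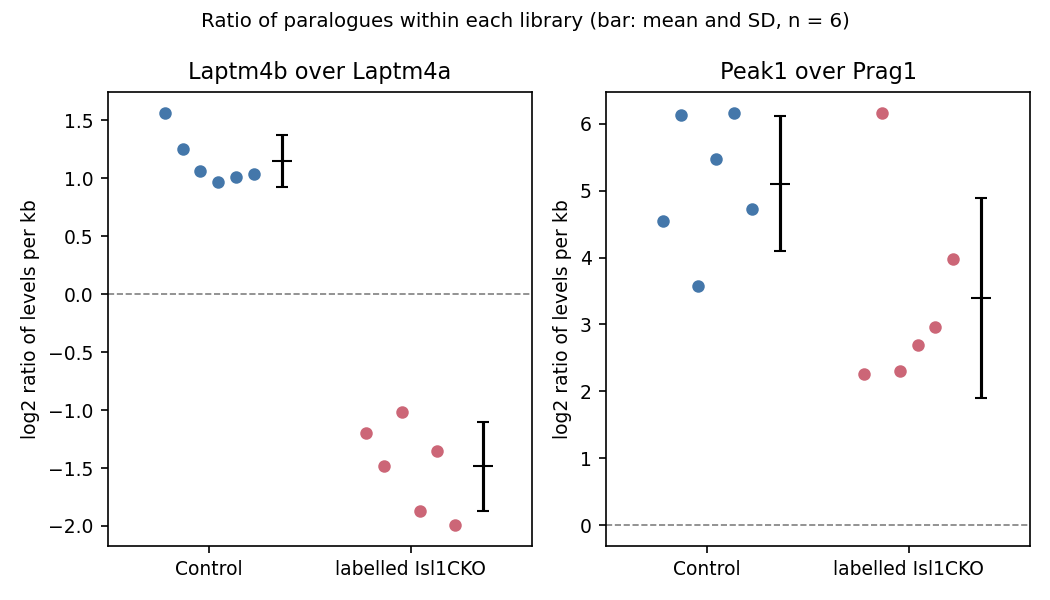
Log2 ratio of levels per exonic length within each library (prior count 2) for Laptm4b over Laptm4a and Peak1 over Prag1, by group, with the mean and SD of each group (n = 6) as a bar. Laptm4b over Laptm4a lies above 0 in the 6 controls and below 0 in the 6 Isl1CKO-labelled libraries.

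Laptm5, the remaining LAPTM gene, was not chosen by the rule. It had 0 to 35.4 CPM in controls with a median of 0.152 CPM, and 0 to 35.5 CPM in the Isl1CKO-labelled group with a median of 5.03 CPM. The groups overlapped over their whole range, and its log2 fold change (0.72, standard error 1.53) did not pass edgeR's quasi-likelihood test (adjusted p = 0.826). The summed level of 11 macrophage marker genes also varied widely, from 2.07 to 457 CPM in controls and from 1.46 to 786 CPM in the other group. The PEAK family member Peak3 was not analysed here.

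Total counts were 11895603 to 13857480 per library, and 3 counts corresponded to 0.219 to 0.25 CPM, which covers counting error only. Isl1 itself did not separate the groups: it had 1171 to 1777 CPM in controls and 1050 to 1589 CPM in the libraries labelled Isl1CKO (log2 fold change -0.15, standard error 0.11, edgeR adjusted p = 0.460). Which exons the loxP sites flank is not given in the sources used here, and counts over the whole gene do not check the genotype labels. The summed level of 11 sensory neuron markers was 14301 to 16458 CPM in controls and 10275 to 13482 CPM in the other group. Of these markers, Nefl, Nefm, Gata3 and Shox2 fell and Neurod1 rose (edgeR adjusted p under 0.05). Mean levels in controls and the other group were 3337 and 881 CPM for Nefm, 1505 and 580 CPM for Nefl, and 1474 and 225 CPM for Gata3. Tubb3 (3210 and 3940 CPM) and Snap25 (626 and 635 CPM) were, like Neurod1, higher on average, and the other listed neuron markers were lower. The lower sum therefore does not stand for a fall of every neuron marker. The mitochondrial share of counts was 1.05 to 1.65% in controls and 0.845 to 1.02% in the other group. None of 10 macrophage markers, 6 Schwann cell and satellite glia markers, 2 otic epithelium and hair cell markers and 1 erythroid marker tested passed edgeR's test. Of 4 mesenchymal markers tested, Col3a1 (means of 2.66 and 14.1 CPM) and Tbx18 (1.09 and 39.5 CPM) rose. Pou3f4, the most abundant of that list in controls, was not called, with means of 52.9 CPM in controls and 27.4 CPM in the other group. Twist1 and Lum were also lower on average, and the other listed mesenchymal markers were higher. The summed list was at 38.6 to 84.5 CPM in controls and 72.0 to 122 CPM in the other group. Endothelial markers summed to 0.220 to 1.33 CPM in controls and 0.292 to 29.8 CPM in the other group, with Tie1 and Cldn5 at 3 counts or fewer in every library.

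The fold changes of the 4 genes were recomputed beside these measures. With marker levels of macrophages and Schwann cells in the model, the log2 fold change was -2.89 for Laptm4b, -0.29 for Laptm4a, -3.51 for Peak1 and -1.69 for Prag1. Without the 3 libraries that held both Xist and Y-linked transcripts it was -2.92 for Laptm4b, -0.12 for Laptm4a, -3.41 for Peak1 and -1.23 for Prag1. Laptm4b and Peak1 were chosen because every Isl1CKO-labelled library lay below every control. These fits could therefore hardly give another result for them, and no conclusion is drawn from the values. The part of the neuron markers and of the mitochondrial share in these differences was not tested.

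Whether the 4 genes varied together within the groups was examined after subtracting each group's mean of log2 CPM. Laptm4b and Peak1 gave Pearson's r = 0.40 (permutation p = 0.320, adjusted p = 0.845 over 6 pairs) and Spearman's rho = 0.18 (permutation p = 0.619, adjusted p = 0.905) over 12 libraries. Without the 2 libraries farthest from the median in Laptm4b, r was 0.28. For this pair r ranged from 0.18 without Isl1CKO replicate 1 to 0.64 without Isl1CKO replicate 5. Laptm4b and Laptm4a gave r = -0.02 (permutation p = 0.968, adjusted p = 0.968) and rho = -0.05 (permutation p = 0.905, adjusted p = 0.905). That pooled value joined r = -0.85 in the 6 controls and r = 0.12 in the 6 Isl1CKO-labelled libraries, and the difference between them was not tested. Peak1 and Prag1 gave r = -0.23 (permutation p = 0.560, adjusted p = 0.845) and rho = -0.29 (permutation p = 0.407, adjusted p = 0.905). Without the 2 libraries farthest from the median in Peak1, r was 0.42. Of the 6 pairs, 0 had a p under 0.05, pooled over the groups. Against macrophage marker level, Schwann cell marker level, total counts and mitochondrial share, 0 of 16 relations had a p under 0.05 (lowest adjusted p = 0.634). Some of these pooled values also joined opposite signs: for Laptm4b and Schwann cell marker level r was -0.81 in controls and 0.56 in the other group, and for Peak1 and total counts it was 0.57 and -0.86, differences that were not tested.

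Genes with the most similar pattern were ranked by Pearson's r of log2 CPM over the 12 libraries, among the 9911 tested genes whose log2 CPM averaged at least 3. Such an r is carried mostly by the difference between the groups, so the r after subtracting group means is given beside it. Since the ranking r also includes variation within groups, the ranking itself favours a high second r in the top genes. The second r was not tested for these genes. Closest to Laptm4b were Fgf10, a secreted fibroblast growth factor, with r = 0.989 (0.54 within groups), Chrdl1, an extracellular antagonist of bone morphogenetic proteins, with 0.985 (0.63), and Acsl1, an enzyme that activates long-chain fatty acids, with 0.982 (0.60). Peak1 ranked 5 in the list of Laptm4b with 0.980 (0.40), and Laptm4a ranked 1639 with 0.522 (-0.02). Laptm4b and Peak1 were both chosen for lower counts in every Isl1CKO-labelled library, which favours a high rank, and Laptm4a was added as a contrast. No conclusion is drawn from these ranks. Closest to Peak1 were Helt, a basic helix-loop-helix transcription factor, with 0.989 (0.72), Asap1 with 0.987 (0.74) and Chrdl1 with 0.984 (0.66).

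The mean level of Fgf10 was 873 CPM in controls and 143 CPM in the Isl1CKO-labelled group, and that of Chrdl1 was 654 and 8.0 CPM. For Acsl1 the means were 384 and 50.4 CPM, and for Helt 50.3 and 0.207 CPM. All 4 of these genes had groups that did not overlap, which a choice by likeness to Laptm4b and Peak1 favours.

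The nearest tested genes on the chromosomes were examined next. Over all 14813 genes, 10.2% passed edgeR's test at an adjusted p under 0.05, 5.19% lower and 5.01% higher. Whether changes in neighbours are linked to those of the members was not tested. Downstream of Laptm4b, at 22375 bases, lies Matn2, which encodes matrilin 2, an adaptor protein of the extracellular matrix. Matn2 had 27.5 to 75.0 CPM in controls and 0.0753 to 9.86 CPM in Isl1CKO-labelled libraries, the lowest of them under the floor of 3 counts. The groups did not overlap, and Matn2 fell from 48.5 ± 17.1 to 3.03 ± 3.62 CPM (SD, n = 6 each; log2 fold change -4.00, standard error 0.70, edgeR adjusted p = 0.00175). Mtdh, 92404 bases upstream of Laptm4b, fell from 135 ± 24.0 to 101 ± 4.78 CPM (log2 fold change -0.42, edgeR adjusted p = 0.0180). That call was lost with the marker covariates (adjusted p = 0.194) and without the 3 libraries holding both Xist and Y-linked transcripts (adjusted p = 0.127). The unclassified transcript 9930017N22Rik (-0.74, adjusted p = 0.310) and the ribosomal protein gene Rpl30 (-0.50, adjusted p = 0.0588) did not pass. As 9930017N22Rik lies within Mtdh on the same strand, its reads cannot be told apart from Mtdh RNA.

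Within the body of Peak1, Gm29322, annotated as a sense intronic transcript, fell from 1.80 to 0.138 CPM (log2 fold change -3.61, standard error 0.76, edgeR adjusted p = 0.00600). The lower mean of Gm29322 lay under the floor of 3 counts, so the size of its fold change is uncertain. As Gm29322 lies on the strand of Peak1, its reads cannot be told apart from unspliced Peak1 RNA. The other tested gene inside Peak1 on its strand, Gm36940, had 2.58 ± 1.34 and 0.789 ± 0.537 CPM and did not pass (log2 fold change -1.70, standard error 0.60, edgeR adjusted p = 0.0930). Rcn2, which encodes a calcium-binding protein of the endoplasmic reticulum, rose from 205 ± 27.3 to 274 ± 17.8 CPM (log2 fold change 0.42, edgeR adjusted p = 0.00743), a call that was lost with the marker covariates (adjusted p = 0.0805) and without the 3 libraries (adjusted p = 0.0933). Tspan3 (0.11, adjusted p = 0.368) and Lingo1 (-0.37, adjusted p = 0.427) did not pass. None of the 4 nearest tested genes of Laptm4a (Pum2, Sdc1, Wdr35 and Ttc32) or the 4 of Prag1 (Eri1, Mfhas1, Lonrf1 and Trmt9b) passed. Among all tested genes 10.2% passed, so a lack of calls in so few genes is unremarkable.

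**Figure D3:**
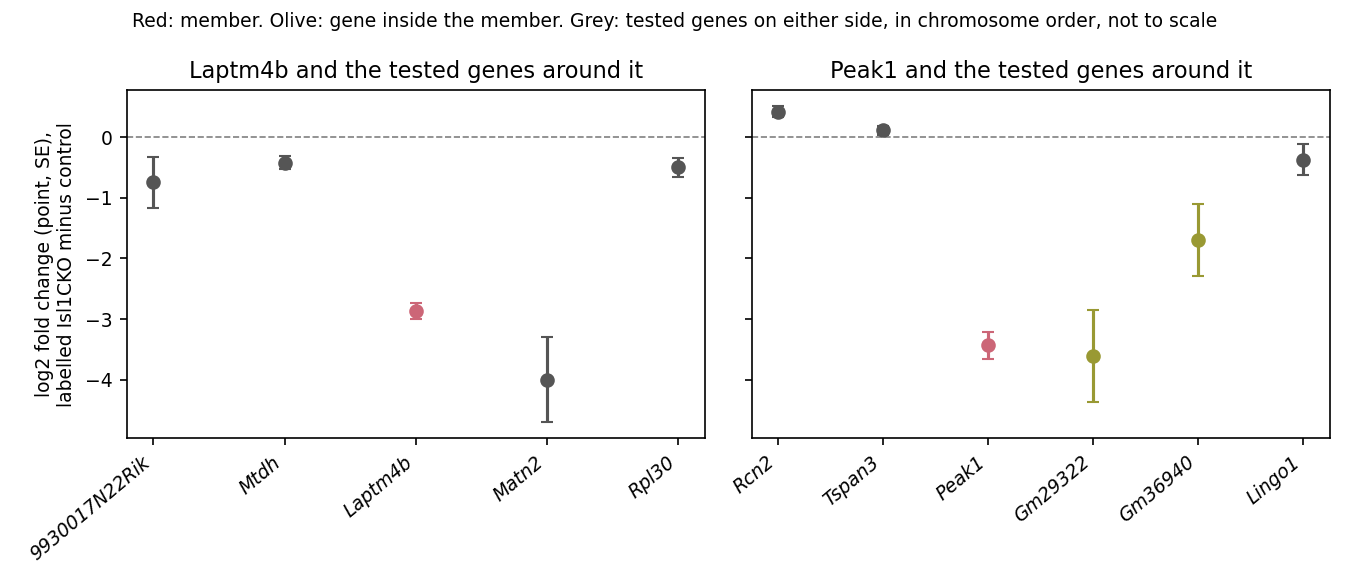
Log2 fold change, Isl1CKO-labelled minus control, of Laptm4b and Peak1 (red), tested genes inside Peak1 (olive) and tested genes on either side (grey), in chromosomal order, with standard errors as bars. Beside Laptm4b, Matn2 lies at -4.00, and beside Peak1, Tspan3 lies at 0.11 and Rcn2 at 0.42.

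The genes these proteins work with were taken from 7 lists, and 27 of 219 tested list genes passed edgeR's test at an adjusted p under 0.05 (12.3%), against 1511 of all 14813 genes (10.2%), 769 lower (5.19%) and 742 higher (5.01%). Of the 27, 13 were lower and 14 higher, and the median log2 fold change was 0.04 over the lists and 0.0045 over all genes. With the marker covariates 9 of the 27 calls remained, and without the 3 libraries 9 remained.

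Among 14 partners of LAPTM4B (receptors, transporter subunits, ubiquitin ligases and trafficking proteins), 0 passed edgeR's test, DESeq2 and limma-voom, with a median log2 fold change of -0.0026. At an unadjusted p under 0.05 there were 2, Nedd4 and Slc3a2. Nedd4, the most abundant of them per length, had 1698 ± 202 CPM in controls and 1939 ± 39.5 CPM in the other group (SD, n = 6 each; log2 fold change 0.19, adjusted p = 0.112). Slc3a2, the heavy chain of the leucine transporter, had 179 ± 25.5 and 154 ± 10.5 CPM (-0.21, adjusted p = 0.200), and its light chain Slc7a5 had 16.4 ± 6.55 and 11.3 ± 6.20 CPM (-0.53, adjusted p = 0.396). The epidermal growth factor receptor gene Egfr was low in both groups, at 5.45 ± 2.21 and 4.42 ± 0.542 CPM.

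Of 52 tested genes of the lysosomal membrane, its enzymes and their sorting, 0 fell and 5 rose (9.62%), with a median of 0.14. The 5 were Lipa, Npc2, Ctns, Ctsf and Lamp2. Lipa, the lysosomal acid lipase, rose from 28.1 ± 4.99 to 50.2 ± 11.4 CPM (log2 fold change 0.84, standard error 0.17, edgeR adjusted p = 0.00526). Npc2, the lysosomal cholesterol carrier, rose from 162 ± 12.2 to 211 ± 26.7 CPM (0.38, standard error 0.09, edgeR adjusted p = 0.0129). With the marker covariates neither passed (adjusted p = 0.0958 and 0.0583), and without the 3 libraries Npc2 did not (adjusted p = 0.0609). Ctns, Ctsf and Lamp2 passed neither with the covariates (adjusted p = 0.156, 0.0722 and 0.162) nor without the 3 libraries (adjusted p = 0.102, 0.0793 and 0.101). They also lost their calls in 3, 5 and 7 of the 12 fits that left out 1 library. Hence 0 genes of this list passed with the covariates and 1 without the 3 libraries. Rab7, a small GTPase of late endosomes and the most abundant gene of the list per length, had 333 ± 16.5 and 343 ± 15.3 CPM (log2 fold change 0.05, adjusted p = 0.705).

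Among 18 subunits of the vacuolar ATPase, which acidifies lysosomes, 2 fell and 1 rose (16.7%), with a median of -0.01. Atp6v1g2 (-0.51, edgeR adjusted p = 0.0330) and Atp6v1g1 (-0.34, adjusted p = 0.0415) fell and Atp6v0e (0.53, adjusted p = 0.0239) rose. All 3 calls were lost with the covariates, without the 3 libraries and without control replicate 5 or Isl1CKO replicate 2, 4, 5 or 6 singly. Leaving out control replicate 1, 3, 4 or 6 or Isl1CKO replicate 1 ended 1 or 2 of them. With replicate number in the model, the Atp6v1g2 and Atp6v1g1 calls were lost (adjusted p = 0.0853 and 0.0609). Both were also lost without an expression filter (adjusted p = 0.0521 and 0.0632).

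Of 34 genes of mTORC1 and its regulators at the lysosome, 3 fell and 1 rose (11.8%), with a median of -0.03. Sesn1, which encodes sestrin 1, an inhibitor of mTORC1, rose from 27.0 ± 10.1 to 57.2 ± 12.1 CPM (log2 fold change 1.08, standard error 0.25, edgeR adjusted p = 0.0102). Lamtor5, a subunit of the Ragulator complex, fell from 113 ± 10.4 to 90.6 ± 5.78 CPM (-0.32, standard error 0.08, edgeR adjusted p = 0.0239). Eif4ebp1, a translation repressor that mTORC1 phosphorylates, fell from 11.9 ± 5.34 to 5.09 ± 1.69 CPM (-1.22, standard error 0.32, edgeR adjusted p = 0.0263). Sesn1 passed under every alternative tried. The call of Lamtor5 was lost without Isl1CKO replicate 2, 4 or 5, and that of Eif4ebp1 without control replicate 3 or Isl1CKO replicate 6. Both were lost with the marker covariates and without the 3 libraries, and Eif4ebp1 also with replicate number in the model (adjusted p = 0.107). The other gene that fell was Wdr59, whose call was lost in 13 of 21 alternatives, among them the covariates (adjusted p = 0.0856), the fit without the 3 libraries (adjusted p = 0.167) and 9 of the 12 fits that left out 1 library.

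Ceramide and glycosphingolipid metabolism, with 28 genes tested, had 1 that fell and 3 that rose (14.3%), with a median of -0.01. Sgms1, which makes sphingomyelin from ceramide, had 29.3 to 62.6 CPM in controls and 6.27 to 24.2 CPM in Isl1CKO-labelled libraries. These groups did not overlap, and Sgms1 fell from 45.5 ± 11.0 to 12.6 ± 6.87 CPM (log2 fold change -1.85, standard error 0.31, edgeR adjusted p = 0.00107). Smpd2, a neutral sphingomyelinase that releases ceramide from sphingomyelin, rose from 12.9 ± 3.28 to 24.3 ± 5.28 CPM (0.91, standard error 0.21, edgeR adjusted p = 0.0115). Sgpl1 (0.66, adjusted p = 0.0152), the lyase that degrades sphingosine 1-phosphate, and Smpd4 also rose. Sgms1 passed under every alternative tried, whereas Smpd2 did not with the marker covariates (adjusted p = 0.0978) or without the 3 libraries (adjusted p = 0.0657). The Sgpl1 call was lost with the covariates (adjusted p = 0.120), and the Smpd4 call in 14 of 21 alternatives, among them 10 of the 12 fits that left out 1 library. Tm9sf2, the most abundant gene of the list per length, had 246 ± 36.7 and 268 ± 33.3 CPM (log2 fold change 0.12, adjusted p = 0.555).

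Partners of PEAK1 and PRAG1 had 28 genes tested, of which 4 fell and 2 rose (21.4%), with a median of 0.04. Asap1, a GTPase-activating protein for Arf that acts at focal adhesions, had 256 to 335 CPM in controls and 91.9 to 132 CPM in Isl1CKO-labelled libraries. The groups were well separated, and Asap1 fell from 301 ± 31.7 to 113 ± 17.0 CPM (SD, n = 6 each; log2 fold change -1.42, standard error 0.11, edgeR adjusted p = 7.31e-07). Crk, an adaptor that binds phosphorylated scaffolds, fell from 85.9 ± 7.07 to 62.7 ± 4.30 CPM (-0.45, standard error 0.09, edgeR adjusted p = 0.00377), without overlap between the groups, and did not pass without the 3 libraries (adjusted p = 0.0601).

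The other partners that fell were Ywhah and Ywhaq, genes of the 14-3-3 family. The Ywhaq call was lost in 16 of 21 alternatives, among them 11 of the 12 fits that left out 1 library, and the Ywhah call with the marker covariates (adjusted p = 0.0506). Ywhae, of the same family and the most abundant partner per length, had 2705 ± 116 and 2795 ± 218 CPM (log2 fold change 0.05, adjusted p = 0.686). Camk2g, a calmodulin-dependent kinase, rose from 151 ± 20.4 to 202 ± 27.3 CPM (0.42, edgeR adjusted p = 0.0231), and Rnd2, the GTPase that PRAG1 binds, rose from 10.1 ± 4.80 to 19.6 ± 2.91 CPM (0.95, edgeR adjusted p = 0.0444). Rnd2 remained past the threshold in only 3 of the 12 fits that left out 1 library. The Rnd2 call was also lost with the marker covariates (adjusted p = 0.0538) and without the 3 libraries (adjusted p = 0.193). Upper quartile scaling (adjusted p = 0.0531) and no expression filter (adjusted p = 0.0597) ended it too. Camk2g was lost without control replicate 5 or 6 or Isl1CKO replicate 2 and without the 3 libraries (adjusted p = 0.303). The direct adaptors Shc1 (26.7 ± 6.87 and 16.8 ± 7.05 CPM, adjusted p = 0.163) and Grb2 (61.0 ± 8.69 and 73.1 ± 8.33 CPM, adjusted p = 0.198) and the kinase gene Csk (43.8 ± 15.5 and 32.2 ± 5.68 CPM, adjusted p = 0.199) did not pass.

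Among 45 other focal adhesion genes, 3 fell and 2 rose (11.1%), with a median of 0.06. Itga4, the alpha 4 integrin subunit, rose from 25.6 ± 8.51 to 75.6 ± 16.3 CPM (log2 fold change 1.56, standard error 0.21, edgeR adjusted p = 1.95e-04). Pak3, a neuronal p21-activated kinase, also rose (0.72, edgeR adjusted p = 0.00421). Parvb, which encodes beta-parvin, a partner of integrin-linked kinase, fell from 72.9 ± 13.9 to 29.6 ± 9.30 CPM (-1.30, standard error 0.19, edgeR adjusted p = 4.58e-04).

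Itga7, a laminin-binding integrin subunit, fell from 5.16 ± 3.75 to 0.471 ± 0.540 CPM (-3.43, standard error 0.72, edgeR adjusted p = 0.00579), with groups that overlapped. Enah, an actin regulator, was the other gene of this list that fell, and its call was lost in 10 of 21 alternatives, among them the covariates (adjusted p = 0.273), the fit without the 3 libraries (adjusted p = 0.179) and 8 of the 12 fits that left out 1 library. Cdc42, the most abundant gene of the list per length, had 905 ± 78.3 and 1022 ± 68.8 CPM (log2 fold change 0.18, adjusted p = 0.134). Itga4 and Parvb passed under every alternative tried, as did Itga7 wherever its level let it be tested, whereas Pak3 did not pass without the 3 libraries (adjusted p = 0.0716).

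**Figure D4:**
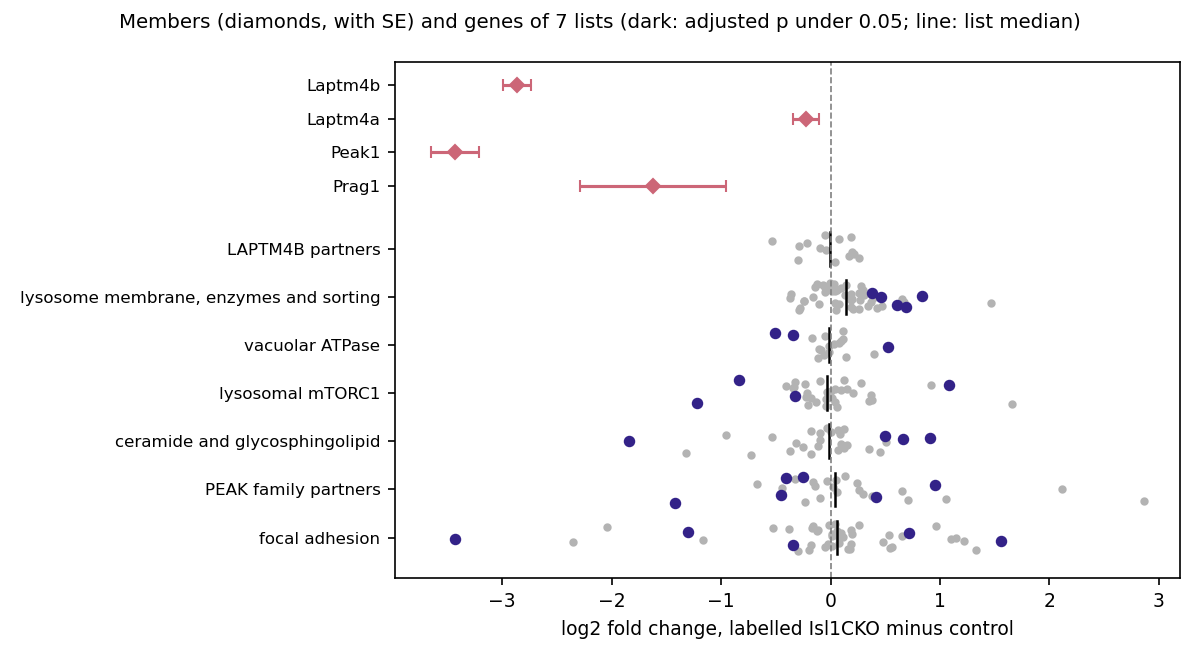
Log2 fold change of Laptm4b, Laptm4a, Peak1 and Prag1 (diamonds, with standard errors) and of every tested gene in 7 lists of partner and pathway genes (points, dark where the adjusted p is under 0.05), with a line at each list's median. The medians lie between -0.03 and 0.14, and some single list genes lie far from them. Laptm4b and Peak1 had -2.86 and -3.43. They are single genes chosen for their low values, so their distance from the medians follows from the choice.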

How the data were processed

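The authors deposited 1 table of raw counts, whole numbers for each gene and each of 12 libraries. Per the submitters' processing notes, cutadapt 1.18, Bowtie 1.2.2, STAR 2.7.0c, featureCounts and the build GRCm38.p6 were used. Their roles and settings, the annotation and the use of strand are not given in the sources used here, and reads that match several genes may have been counted or dropped. Symbols were matched for 25620 of 25674 identifiers, with positions and exonic lengths from GENCODE M21 on GRCm38. No pair of libraries agreed within sampling noise.

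Genes were kept by filterByExpr (minimum count 10), scaled by TMM and tested with edgeR 4.0.16 (R 4.3.3; quasi-likelihood F-test, robust, 2-sided, no covariate, Benjamini-Hochberg adjustment over 14813 genes, threshold 0.05). Alternatives used DESeq2 1.42.0, limma 3.58.1, other scalings and filters, ratios without a prior count, covariates, left-out libraries and a replicate block. The scripts were tested on simulated data. Correlations used 2-sided permutation within groups.

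The 4 genes, the 7 partner and pathway lists (LAPTM4B partners, lysosome, vacuolar ATPase, mTORC1, ceramide, PEAK family partners, focal adhesion) and the marker lists were chosen with earlier results of these data known. Named genes were Isl1, the members of both families, the 2 lower and 2 higher genes of smallest p among those past the threshold in each list and its most abundant gene per length, the 3 genes most like Laptm4b and Peak1, and the nearest 2 tested genes on each side. Other named genes were picked after their values were seen: the further genes past the threshold in a list, Slc3a2, Slc7a5, Egfr, Shc1, Grb2, Csk, the genes inside or sharing sequence with a member and the neighbours of Laptm4a and Prag1. A sequence and a neighbouring gene that this rule or comparison would include are not reported here.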

Additional observations from a re-analysis of the deposited data

Results flagged for a closer look

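Of 18 group values checked, 3 had a library whose gap to the nearest other, divided by the range of the group, was above Dixon's critical value. Chance flags about 1 in 20 group values, or 0.9 here. Laptm4a was lowest in control replicate 1, at 93.5 CPM, with the other 5 controls at 108 to 115 CPM. Peak1 was highest in control replicate 2, at 214 CPM, with the others at 126 to 146 CPM. Laptm5 was highest in control replicate 1, at 35.4 CPM, with the others at 0 to 2.67 CPM, and that library also had the highest macrophage marker level among the controls.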

How the results depend on the processing

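The log2 fold changes of the 4 genes kept their sign under every alternative that gave a value. Leaving out 1 library gave -2.96 to -2.79 for Laptm4b, -0.28 to -0.14 for Laptm4a, -3.59 to -3.31 for Peak1 and -2.10 to -1.24 for Prag1, which had no value under a filter at a mean of 5 CPM. Over all genes, 1511 passed the threshold, 918 with the macrophage and Schwann cell marker covariates, 767 without the 3 libraries holding both Xist and Y-linked transcripts, and 1178 to 1517 without 1 library. Of the list genes, 27 passed, 12 with the covariates, 10 without the 3 libraries, and 16 to 28 without 1 library (16 without control replicate 5 or Isl1CKO replicate 5). The cause of these shifts was not tested. Same-numbered libraries deviated together with r of -0.06 to 0.15 across genes. Differently numbered libraries were not compared, so whether replicate numbers pair the samples cannot be told from these values. A fit with the replicate block gave 1450 genes and 25 list genes. Under the block the log2 fold change was -2.88 for Laptm4b, -0.24 for Laptm4a, -3.47 for Peak1 and -1.90 for Prag1. Single named genes kept their call in 587 alternative fits and lost it in 146, with 0 reversed. Depth limits Prag1, with 1 to 97 counts per library.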
